A study of Homo sapiens with 4 samples.

Results

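The genes described here make, store and take back the catecholamines dopamine and noradrenaline: TH, DBH, DDC, GCH1, SLC18A1, SLC18A2, SLC6A2, CHGA, CHGB and SCG2. They were chosen by name, as 10 of 19970 protein-coding genes, and their chromatin was read from peaks that overlapped a transcription start site (TSS) of any annotated transcript ± 3 kb (promoter peaks) and from all peaks within 50 kb of the gene (locus peaks). The 10 loci covered 1.358 Mb in all and held 68 of 47610 control peaks and 59 of 42682 sgSNHG1 peaks.

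Open chromatin was profiled with ATAC-seq, in which the Tn5 transposase cuts accessible DNA and leaves sequencing adapters there. The cells were SK-N-BE(2)C, an established MYCN-amplified neuroblastoma cell line. The control group (2 samples) carried a non-targeting guide RNA and the wild-type genotype, and the sgSNHG1 group (2 samples) was treated with guide RNAs against SNHG1, the host gene of several small nucleolar RNAs whose spliced product is a long non-coding RNA, and carries the genotype label SNHG1 knockout. The study describes these cells as depleted of SNHG1, with the gene not fully knocked out. Both groups went through Cas9 transfection, puromycin selection and sorting of single cells, so each line descended from sorted clones, and how many clones entered each ATAC-seq group is not given in the sources used here. Differences between clones and differences caused by the depletion of SNHG1 therefore cannot be told apart.

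The reads of the 2 samples of a group had been pooled before peak calling, so that each group is represented by 1 peak list. There is no spread between replicates and no test between the groups, and all errors below cover counting error only. The height of a peak is its fold enrichment, the pileup of fragments at the summit divided by the local background, with 1 added to each. A log2 ratio is sgSNHG1 over control, and its counting error was computed from the fragments at the 2 summits. Read totals of the libraries are unknown. The peaks themselves show the depth: the smallest pileup of any peak was 10 fragments for control and 9 for sgSNHG1. The smallest local background of each list, 2.20 and 1.72 fragments, served to scale its pileups to a common depth.

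At SNHG1 itself, on the minus strand of chromosome 11, a promoter peak was called in both lists, spanning chr11:62855827-62856251 in control and chr11:62855965-62856134 in sgSNHG1. Its fold enrichment was 5.71 and 6.04. An open promoter says nothing about the RNA, so these peaks do not check the genotype. Of 10 neuroblastoma markers all 10 had a promoter peak in both lists, and 8 of them were lower in sgSNHG1, as were 60.4% of all genes with a ratio. Their median log2 ratio was -0.18 on fold enrichment and -0.34 on scaled pileup, beside -0.07 and -0.04 over all genes. MYCN stood at 4.30 and 3.89 (log2 ratio -0.14, counting error 0.04, and -0.40 on scaled pileup). It was lower by more than 2 counting errors, as were 1.31% of all genes with a ratio. The errors of the other neuroblastoma markers were 0.289 to 0.487, so at MYCN a much smaller ratio passes this limit. The 1.31% is therefore not a like comparison for MYCN. Of the markers of other cell types, the T cell genes CD3E, CD3D and CD2 had no promoter peak in either list, while 1 of 3 hepatocyte genes, 2 of 3 epithelial genes and 2 of 3 mesenchymal genes had one in both.

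Catecholamines are made from tyrosine. TH, tyrosine hydroxylase, converts tyrosine to L-DOPA with tetrahydrobiopterin as cofactor, and GCH1, GTP cyclohydrolase, is the entry enzyme for making that cofactor. DDC, the aromatic L-amino acid decarboxylase, turns L-DOPA into dopamine, and DBH, dopamine beta-hydroxylase, turns dopamine into noradrenaline inside the vesicle. SLC18A1 and SLC18A2 are the vesicular monoamine transporters VMAT1 and VMAT2, SLC6A2 is the noradrenaline transporter of the plasma membrane, and the granins CHGA, CHGB and SCG2 are acidic proteins of the dense-core granule. These genes mark the sympathoadrenal lineage from which neuroblastoma arises, and catecholamine products in urine are used to diagnose the disease.

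The promoter sequences of 4 of the 10 genes (DDC, DBH, SLC18A2 and CHGA) were held in the RefSeq promoter table of GRCh38.p14. They are printed below from 5′ to 3′ on the strand of the gene. The 3 below were chosen because a cyclic AMP response element (CRE, TGACGTCA) or its first 6 letters (TGACGT) lay within them; capitals mark that match, and each sequence ends at or before the base upstream of its TSS.
DBH promoter (chr9:133636113-133636362, + strand): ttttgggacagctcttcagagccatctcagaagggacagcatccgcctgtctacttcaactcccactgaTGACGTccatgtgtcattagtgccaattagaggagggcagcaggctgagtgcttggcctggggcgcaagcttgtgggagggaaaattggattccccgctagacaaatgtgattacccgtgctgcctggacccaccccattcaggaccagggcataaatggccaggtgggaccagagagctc
SLC18A2 promoter (chr10:117240864-117241092, + strand): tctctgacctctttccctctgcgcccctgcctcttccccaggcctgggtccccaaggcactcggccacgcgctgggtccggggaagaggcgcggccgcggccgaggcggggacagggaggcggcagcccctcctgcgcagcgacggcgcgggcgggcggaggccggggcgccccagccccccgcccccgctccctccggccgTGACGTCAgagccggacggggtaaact
CHGA promoter (chr14:92922900-92923149, + strand): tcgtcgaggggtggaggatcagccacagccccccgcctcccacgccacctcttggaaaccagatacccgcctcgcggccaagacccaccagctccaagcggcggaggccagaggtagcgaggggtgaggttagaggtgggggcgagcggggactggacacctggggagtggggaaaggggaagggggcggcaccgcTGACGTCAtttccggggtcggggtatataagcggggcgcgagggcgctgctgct
The full CRE lay at -48 to -41 in SLC18A2 and at -54 to -47 in CHGA, counted from the TSS, and it reads the same on both strands. DBH held TGACGT at -181 to -176 on the plus strand. Every full CRE also counts as a match of TGACGT. Over all 35116 RefSeq promoters, cut to the same 250 bases before the TSS and searched on both strands, 1.65% held TGACGTCA and 7.10% held TGACGT. The GC-box letters GGGCGG, present in 42.6% of all promoters, occurred at 3 places in SLC18A2 and at 1 place in CHGA. These matches describe the letters and do not show that a factor bound there.

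DDC has start sites that lie far apart, and both promoters are shown because peaks were called on 1 of them only. The capitals in the downstream promoter mark the 11 bases centred on the control summit.
DDC canonical promoter (chr7:50565406-50565655, - strand): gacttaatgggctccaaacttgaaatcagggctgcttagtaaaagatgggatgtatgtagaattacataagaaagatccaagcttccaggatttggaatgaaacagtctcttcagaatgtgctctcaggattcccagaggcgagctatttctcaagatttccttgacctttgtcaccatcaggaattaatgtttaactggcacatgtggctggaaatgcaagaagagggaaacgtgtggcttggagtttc
DDC downstream promoter (chr7:50561072-50561321, - strand): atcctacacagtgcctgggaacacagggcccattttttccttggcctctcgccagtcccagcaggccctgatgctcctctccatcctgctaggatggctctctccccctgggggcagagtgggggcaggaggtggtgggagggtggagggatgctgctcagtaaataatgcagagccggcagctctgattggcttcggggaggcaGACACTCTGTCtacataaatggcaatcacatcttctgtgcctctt
None of the 250 bases of the canonical promoter lay in a peak of either list, whereas all 250 bases of the downstream promoter were covered in both. The GC content was 42.4% in the former and 58.0% in the latter, and neither held the CRE letters or GGGCGG.

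TH (chr11:2163929-2171815, - strand) was the only member without a promoter peak in either list. The nearest control peak edge lay 3998 bp from a TSS, in a peak of fold enrichment 3.93 with its summit 4030 bp upstream, and it had no partner in the sgSNHG1 list, where the nearest peak edge was 13959 bp away. No peak lay in the TH gene body. The locus held 6 control and 3 sgSNHG1 peaks, and the 3 sgSNHG1 peaks each overlapped a control peak upstream of the gene. The strongest of them, at chr11:2193199-2193816 and 21560 bp upstream of the TSS, reached 6.41 in control and 6.43 in sgSNHG1 (log2 ratio 0.00, counting error 0.265). The peak 19094 bp upstream stood at 3.52 and 4.26 (0.28, error 0.342) and the one 13892 bp upstream at 5.38 and 4.37 (-0.30, error 0.402). The gene for the first step of the pathway thus had upstream open sites of similar height in both lists and no called peak over its start.

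GCH1 (chr14:54842008-54902826, - strand) had 1 wide promoter peak over its TSS, 1132 bp in control and 742 bp in sgSNHG1. Its fold enrichment was 7.40 (35 fragments) in control and 6.97 (24 fragments) in sgSNHG1. The log2 ratio was -0.09, with a 95% counting interval of -0.83 to 0.66. A stronger peak lay within the gene, 25611 bp downstream of the TSS (chr14:54876859-54877541), at 11.7 and 9.15 (-0.36, error 0.363). The lowest ratio of the locus belonged to a peak 19934 bp upstream (6.65 and 4.42; -0.59, error 0.522), and the highest to a peak 83946 bp downstream (9.30 and 10.9; 0.23, error 0.298). The 7 pairs of the locus were split, 4 lower and 3 higher in sgSNHG1.

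DDC (chr7:50458436-50565405, - strand) had 12 locus peaks in control, the most of the 10 loci, and 11 in sgSNHG1, as many as CHGA, and all 11 sgSNHG1 peaks overlapped control peaks. Its highest promoter peak covered the downstream start, 4294 bp inside the gene (chr7:50560883-50561494), and was 9.89-fold enriched (83 fragments) in control and 12.02-fold (69 fragments) in sgSNHG1. The log2 ratio was 0.28 (counting error 0.235, interval -0.18 to 0.74), and on scaled pileup it was 0.09. The other promoter peak, 2527 bp upstream of the canonical TSS, stood at 8.78 and 10.4 (0.24, error 0.322), and on scaled pileup at -0.07, so the direction of this peak depended on the scale. Away from its promoters 8 control peaks had their summit in the gene body, and the highest of these (chr7:50507986-50508787) had 9.61 in control and 11.1 in sgSNHG1 (0.21, error 0.260). Among the 11 pairs 6 were lower and 5 higher, from -0.39 to 0.33.

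DBH (chr9:133636363-133659329, + strand) carried a promoter peak over the sequence printed above, with the control summit 154 bp and the sgSNHG1 summit 194 bp upstream of the TSS. The control peak (chr9:133636056-133636367) had a fold enrichment of 5.85 from 30 fragments, and the sgSNHG1 peak (chr9:133636053-133636288) had 4.545 from 20 fragments. The log2 ratio was -0.37 (counting error 0.416, interval -1.18 to 0.45). The control peak covered all 250 bases of the printed promoter and the sgSNHG1 peak 176 of them, and the TGACGT match lay under both. No peak had its summit inside the DBH gene body in either list. The 1 other shared site, 21036 bp upstream, stood at 4.27 and 4.29.

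**Figure D1:**
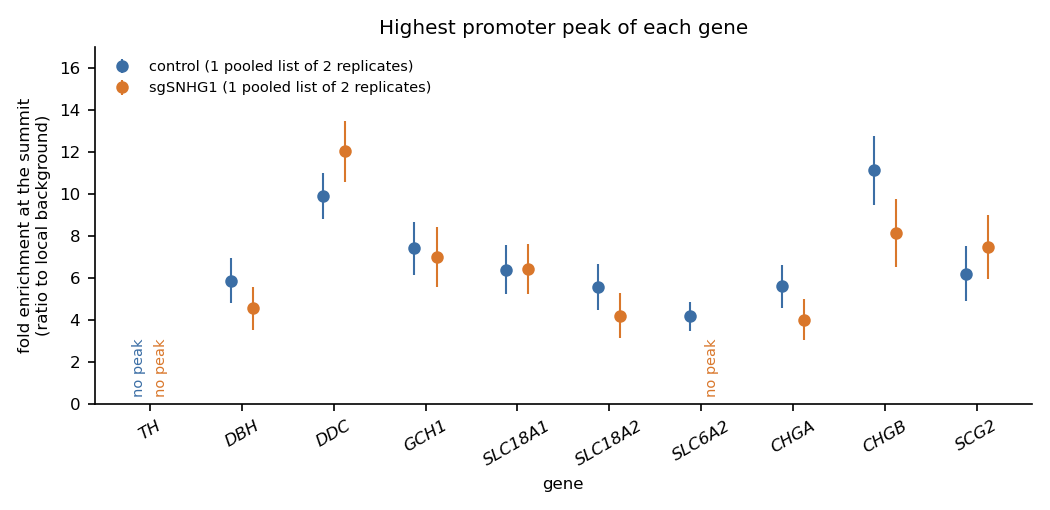
Fold enrichment (ratio to the local background) at the summit of the highest promoter peak of each gene in the control (blue) and sgSNHG1 (orange) peak lists. Bars are the counting error of the pileup (1 standard error) and not a spread over replicates. DDC and CHGB are the highest, the bars of the 2 lists overlap for every gene with peaks in both, TH has none, and SLC6A2 has a peak of 4.17 in control alone.

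The 2 vesicular transporters lay on opposite sides of 0, and no test between them was made. SLC18A2 (chr10:117241093-117279430, + strand) was lower in sgSNHG1 at every one of its 6 paired sites, and SLC18A1 (chr8:20144855-20183206, - strand) was higher at all 4 (log2 ratios 0.01 to 0.23). Of all pairs in the lists 55.6% were lower. The share of all loci whose pairs lie on 1 side is not given, and this contrast was picked after the values were seen. At the SLC18A2 TSS the control peak (517 bp) had a fold enrichment of 5.56 from 26 fragments and the sgSNHG1 peak (147 bp) 4.19 from 15 fragments. The log2 ratio was -0.41 (counting error 0.468, interval -1.33 to 0.51). The control peak covered all 229 bases printed above, the CRE included, and the sgSNHG1 peak began downstream of them and covered 0. The 2 summits lay 35 bp apart, and 79.8% of all pairs were narrower in sgSNHG1. Whether the CRE itself was less open in sgSNHG1 was not tested. The antisense gene SLC18A2-AS1 overlaps this promoter.

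The highest SLC18A2 peak lay 16755 bp downstream of the TSS with its summit in an exon of the gene (chr10:117257631-117258101). It had 10.7 from 69 fragments in control and 7.51 from 33 fragments in sgSNHG1. The log2 ratio was -0.51 (error 0.305), and -0.71 on scaled pileup. A peak 31833 bp downstream, in the gene body, stood at 6.54 and 4.41 (-0.57, error 0.519). The remaining SLC18A2 pairs were an upstream site at 4.41 and 3.54 (-0.32), an upstream site at 6.82 and 6.001 (-0.18) and a gene body site at 5.29 and 4.58 (-0.21). On fold enrichment none of the 6 ratios taken alone was beyond 2 counting errors. On scaled pileup the exon peak was, at -0.71 with an error of 0.305.

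At SLC18A1 the peak that counted as the promoter peak lay 8556 bp inside the canonical gene, near a downstream alternative start, at 6.38 in control and 6.43 in sgSNHG1 (log2 ratio 0.01, counting error 0.376). Only the control list had a peak near the canonical start, a weak one of 3.31 with its summit 213 bp upstream. With a 1 kb window the SLC18A1 ratio became 0.96 (error 0.459), because the 2 lists then gave peaks at different sites. The site 4030 bp upstream stood at 5.59 and 6.56 (0.23, error 0.396), one in the gene body at 5.81 and 6.35 (0.13), and a peak at the promoter of ATP6V1B2, a subunit of the vesicular proton pump that drives monoamine uptake, at 8.73 and 9.34 (0.10).

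SLC6A2 (chr16:55655988-55707645, + strand) was the only member with a promoter peak in control alone. This peak (chr16:55655723-55656195) had its summit 43 bp upstream of the TSS, a fold enrichment of 4.17 from 36 fragments and a −log10 q of 10.5, and it was the only unshared peak of the 10 loci with a −log10 q of 10 or more. The same pattern, a promoter peak in control alone, was found for 6.07% of the 19970 genes. The nearest sgSNHG1 peak edge lay 3307 bp from a SLC6A2 TSS, just outside the 3 kb window. It belonged to an upstream site called in both lists (chr16:55652165-55652772 in control), which had 9.34 from 78 fragments in control and 12.5 from 68 fragments in sgSNHG1 (0.42, error 0.239, and 0.16 on scaled pileup). The gene body held 1 more shared peak, 6092 bp downstream of the TSS, at 9.30 and 7.99 (-0.22, error 0.322). Whether the start was closed in sgSNHG1 or only below the calling threshold was not tested.

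The granins CHGA and CHGB had lower promoter peaks in sgSNHG1 and SCG2 a higher one, each within 2 counting errors of 0. CHGA (chr14:92923150-92935285, + strand) had a promoter peak of 659 bp and 5.58 (31 fragments) in control and of 278 bp and 4.01 (17 fragments) in sgSNHG1. The log2 ratio was -0.48 (counting error 0.435, interval -1.33 to 0.38). The CRE of the sequence printed above lay in the peak of both lists, which covered 250 and 229 of its 250 bases. The site 5717 bp upstream of CHGA was the highest of the locus and stood at 8.61 and 9.002 (0.06, error 0.282). The lowest ratio of all pairs of the 10 loci was downstream of CHGA and inside ITPK1, at chr14:92959031-92959534, with 7.975 in control and 4.96 in sgSNHG1 (-0.69, error 0.387).

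CHGB (chr20:5911510-5925353, + strand) had the highest control promoter peak of the 10 genes. Its fold enrichment was 11.1 (46 fragments) in control and 8.13 (25 fragments) in sgSNHG1 (log2 ratio -0.45, error 0.358, interval -1.15 to 0.25). The summit was 195 bp downstream of the TSS in control and 49 bp upstream of it in sgSNHG1. The locus was otherwise sparse, and its 1 other shared peak was the promoter of TRMT6 and MCM8, at 12.8 and 10.8 (-0.24, error 0.306).

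SCG2 (chr2:223596940-223602361, - strand) had a promoter peak of 6.20 (22 fragments) in control and 7.465 (24 fragments) in sgSNHG1 (log2 ratio 0.27, error 0.426, interval -0.57 to 1.10). A distal site 52926 bp downstream of its TSS (chr2:223549349-223549554) held 7.19 from 24 fragments in control and 11.7 from 36 fragments in sgSNHG1. Its log2 ratio of 0.71 (error 0.380) was the highest of all pairs of the 10 loci. On scaled pileup it was 0.94, which is beyond 2 counting errors. A site 31497 bp upstream went the other way, at 9.81 and 7.29 (-0.43, error 0.416), and the site 10892 bp upstream stood at 7.93 and 7.98 (0.01).

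Across the promoters, 9 of the 10 genes had a peak in control, beside 69.7% of all protein-coding genes, and 8 of 10 in sgSNHG1, beside 65.6%. The 8 genes with a peak in both lists had a median log2 ratio of -0.23 on fold enrichment and -0.21 on scaled pileup, beside -0.07 and -0.04 over the 12714 genes with a promoter peak in both lists. With peaks of −log10 q of at least 10 alone the members' median was 0.01, over the 5 genes left. That limit dropped DBH, SLC18A2 and CHGA, all lower, because their sgSNHG1 peaks fell below it. The median of all genes at that limit is not given, so the 0.01 is not comparable with the -0.23. The direction of the 8 genes split 5 lower (DBH, GCH1, SLC18A2, CHGA and CHGB) and 3 higher (DDC, SLC18A1 and SCG2), and 60.4% of all genes were lower. None of the 8 was at -0.5 or lower, where 7.32% of genes were, and none at 0.5 or higher, where 2.01% were. None lay beyond 2 counting errors in either direction, where 1.31% of genes were lower and 0.472% higher. The median control promoter height of the members, 6.20, was below that of all genes, 7.55.

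**Figure D2:**
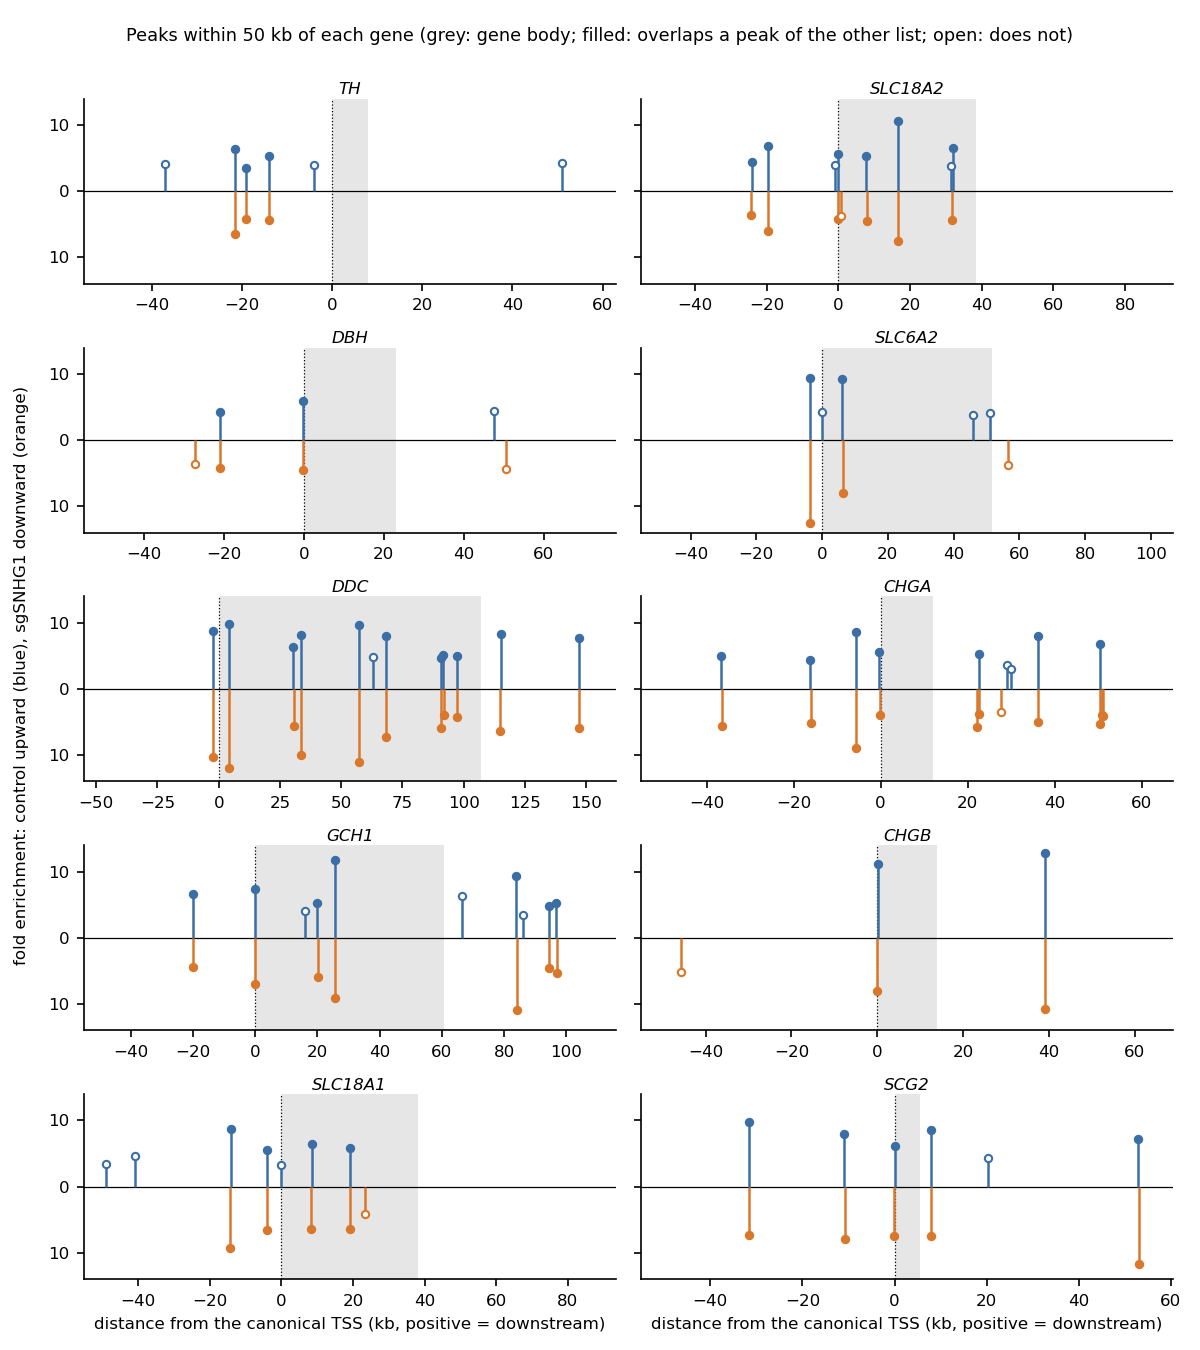
Peaks within 50 kb of each gene, placed by the distance of the summit from the canonical TSS (kb, positive values lie downstream) and drawn as lines whose length is the fold enrichment, control upward in blue and sgSNHG1 downward in orange. Filled points overlap a peak of the other list and open points do not, and the gene body is grey. Most tall peaks are filled in both directions, the open ones are short, the open control point at 0 in SLC6A2 is its promoter peak, and TH has no peak over its body.

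Over the loci, 49 of 68 control peaks overlapped an sgSNHG1 peak (72.1%, Wilson interval 60.4 to 81.3), beside 66.7% of all control peaks, and 52 of 59 sgSNHG1 peaks overlapped a control peak (88.1%, 77.5 to 94.1), beside 78.2% of all sgSNHG1 peaks. Both intervals hold the share of the whole list. The 19 unshared control peaks were weak, with a median −log10 q of 4.63, and so were the 7 unshared sgSNHG1 peaks, at 3.62; the shared peaks had 18.55 and 12.7. Of the control peaks 12 were at own promoters, 19 in own gene bodies, 3 at promoters of other genes and 34 elsewhere, and of the sgSNHG1 peaks 10, 15, 4 and 30. Of the 15 sgSNHG1 peaks in own gene bodies 14 had a control partner.

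The 49 pairs of overlapping peaks had a median log2 ratio of -0.09 (quartiles -0.36 and 0.19), beside -0.05 (quartiles -0.27 and 0.17) for all 31663 pairs. Of these 49, 26 were lower in sgSNHG1 (53.1%, Wilson interval 39.4 to 66.3), beside 55.6% of all pairs. There were 4 pairs at -0.5 or lower (8.16%, interval 3.22 to 19.2), beside 9.06% of all pairs, 2 of them in SLC18A2 and 1 each in GCH1 and CHGA. There was 1 pair at 0.5 or higher (2.04%, interval 0.361 to 10.7), near SCG2, beside 5.37%. On fold enrichment none of the 49 was beyond 2 counting errors, as were 2.68% of all pairs. The median counting error of the 49 was 0.376. On scaled pileup the distal SCG2 pair (0.94, error 0.380) and the exon pair of SLC18A2 (-0.71, error 0.305) were beyond 2 counting errors. The share of all pairs beyond that limit on scaled pileup is not given. By place, the median ratio was -0.09 for 9 pairs at own promoters, -0.20 for 14 in own gene bodies, -0.24 for 3 at promoters of other genes and 0.01 for 23 elsewhere. The peaks were narrower in sgSNHG1 in 38 of 49 pairs (77.6%), and in 79.8% of all pairs. The shares of lower, higher and narrower pairs at these genes were close to those of the whole lists.

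**Figure D3:**
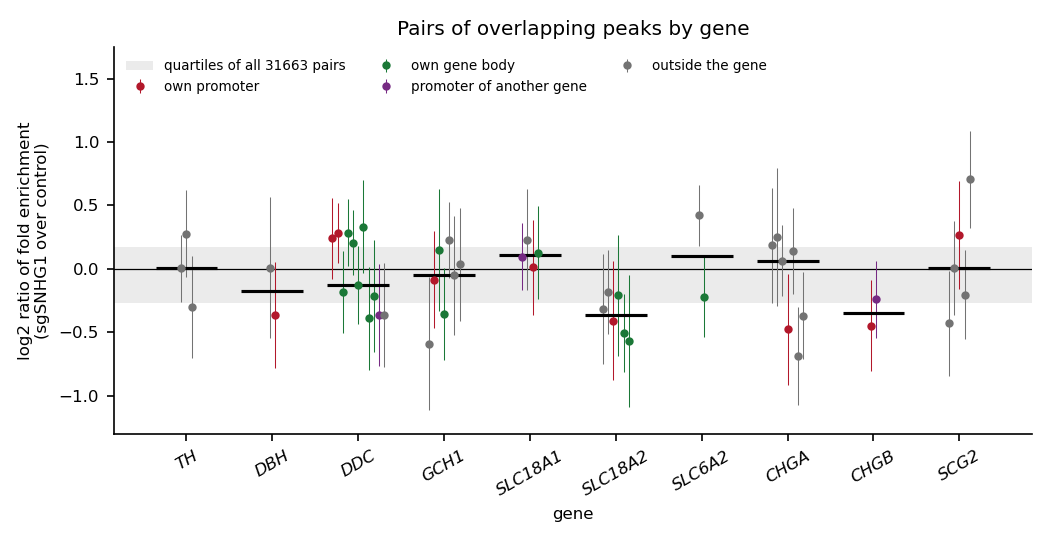
Ratio of fold enrichments, log2 of sgSNHG1 over control, for each of the 49 pairs of overlapping peaks, by gene and coloured by place, with bars of 1 counting error. Black lines are the median of each gene and the grey band holds the quartiles of all 31663 pairs. SLC18A2 has all 6 points below 0, SLC18A1 all 4 above, and the other genes with more than 2 pairs lie on both sides. How often all pairs of a locus lie on 1 side among all loci is not given.

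Because single peaks held few fragments, the pileups of all pairs of a locus were also summed and scaled to the depth of each list, a measure chosen after the data were seen. SLC18A2 summed to 217 fragments in control and 125 in sgSNHG1 (log2 ratio -0.44, counting error 0.162, interval -0.75 to -0.12). It was the only 1 of the 10 loci beyond 2 counting errors. Over the 14233 protein-coding loci with 2 or more pairs, 6.20% were lower and 4.43% higher by that measure, and 4.33% had a ratio as low as that of SLC18A2 or lower, so a count of 1 in 10 is close to this background. CHGB stood at -0.36 (error 0.232), SLC18A1 at 0.30 (error 0.169) and SCG2 at 0.28 (error 0.171). DDC, with the most fragments (527 and 397), was at -0.05 with an interval of -0.24 to 0.14, and TH (0.10), DBH (-0.06), GCH1 (-0.08), SLC6A2 (0.08) and CHGA (-0.04) were within their errors of 0. Using only peaks of −log10 q of at least 5, SLC18A2 was at -0.39 (error 0.202), which is within 2 counting errors, and within 10 kb of the gene it was at -0.56 (error 0.206). The median scaled ratio of all pairs within 5 Mb ranged from -0.07 (TH) to 0.11 (DBH) over the 10 genes and was 0.00 at SLC18A2. A median over so wide a region cannot show a change in a smaller region around the gene, which was not tested.

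**Figure D4:**
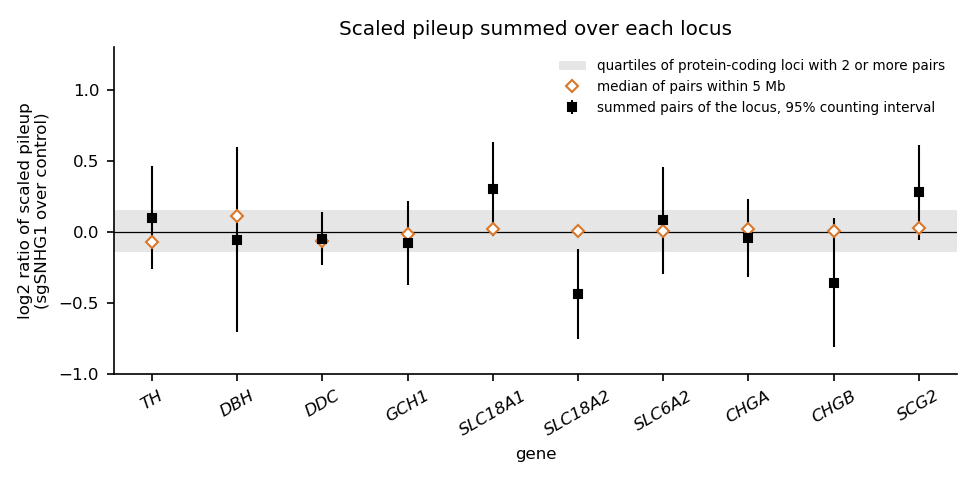
Log2 ratio (sgSNHG1 over control) of scaled pileup summed over the pairs of each locus (black squares, 95% counting interval) and the median over all pairs within 5 Mb (open orange diamonds). The grey band holds the quartiles of the 14233 protein-coding loci, -0.15 to 0.15. The interval of SLC18A2 alone lies below 0.

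In sequence, the windows of 100 bp on either side of the summits of the 68 control peaks had a median GC content of 56.5%, beside 55.7% for all control peaks. The letters TGANTCA, the AP-1 motif with N for any base, occurred in 12 of 68 (17.65%, Wilson interval 10.4 to 28.4) beside 7.11% of all control peaks, and in 7 of 59 sgSNHG1 peaks (11.9%, interval 5.87 to 22.5) beside 8.15%. The GC-box letters GGGCGG were rarer than in all peaks, in 14.7% beside 25.2% in control and in 11.9% beside 26.7% in sgSNHG1. The CRE letters TGACGTCA were in 2 control windows (2.94%, interval 0.81 to 10.1, beside 0.899%) and 3 sgSNHG1 windows (5.085%, interval 1.74 to 13.9, beside 0.998%). The E-box letters CAGCTG were in 22.1% beside 19.0% in control and 23.7% beside 20.8% in sgSNHG1. The GATA letters AGATAA were in 11.8% beside 11.2% in control and in 16.95% (interval 9.48 to 28.5) beside 11.2% in sgSNHG1. All letters were searched on both strands, 10 motifs were searched in each list, and peaks of 1 locus are not independent of each other. The locus peaks were not matched with all peaks for the share that lies at promoters, so the differences may reflect the kind of peak. This was not tested.

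The neighbouring steps of the pathway were described from lists of genes fixed by function. Of the 4 other genes of tetrahydrobiopterin synthesis and recycling, all 4 had a promoter peak in both lists, 3 were lower (60.4% of all genes) and 2 were at -0.5 or lower (7.32% of all genes). With 4 genes these counts describe the list and are no result about it. The 2 genes were PTS, the pyruvoyltetrahydropterin synthase that follows GCH1, at 13.7 in control and 8.16 in sgSNHG1 (log2 ratio -0.75, counting error 0.265, -0.67 on scaled pileup), and SPR, sepiapterin reductase, which completes the cofactor, at 6.87 and 4.26 (-0.69, error 0.442). PTS was lower by more than 2 counting errors, as were 1.31% of all genes. QDPR, which recycles the oxidised cofactor, was at 8.01 and 8.87 (0.15) and PCBD1 at 5.22 and 4.96 (-0.07). The ratio of GCH1, which opens this branch, was -0.09 as given above.

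Among the genes of catecholamine breakdown and later steps reported here, MAOA and CYB561 had a ratio, and both were lower in sgSNHG1 and above -0.5. Of all genes with a ratio 60.4% were lower and 7.32% were at -0.5 or lower. These shares stand beside each count of ratios below. With so few genes the counts describe the lists and are no result about them. MAOA, a monoamine oxidase, was at 9.695 and 8.86 (-0.13), and CYB561, which passes electrons into the granule for DBH, at 7.96 and 6.12 (-0.38). PNMT, which makes adrenaline from noradrenaline, had a peak of 4.33 in sgSNHG1 alone, and MAOB had none. Of 7 other granin and prohormone-processing genes, 6 had a ratio, split 3 and 3. CPE, carboxypeptidase E, was at 12.4 and 9.08 (-0.45, counting error 0.333, and -1.03 on scaled pileup), so the size of its ratio depended on the scale. SCG3 was at 9.76 and 7.45 (-0.39), and PCSK1N had a peak of 5.305 in control alone. Of 6 vesicle release genes, 4 had a ratio and 3 were lower, none at -0.5 or lower. The smallest of these differences was that of RAB3A, at -0.005, and at 0.04 on scaled pileup. SYT1, the calcium sensor of release, was at 14.2 and 13.0 (-0.12). CADPS, which primes dense-core vesicles, was at 9.95 and 7.67 (-0.38), and STX1A had a peak of 5.195 in control alone. Of 5 transporters of other transmitters 3 had a promoter peak in control (69.7% of all genes) and 1 in sgSNHG1 (65.6%). SLC6A3, the dopamine transporter, at 5.70 and SLC18A3, the vesicular acetylcholine transporter, at 5.01 had promoter peaks in control alone. That pattern was found for 6.07% of all 19970 genes, a share that includes genes without a control peak. With 5 genes these counts describe the list and are no result about it. SLC6A4 and SLC17A6 had no promoter peak, and SLC17A7 was at 5.14 and 4.46.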

How the data were processed

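ATAC-seq reads of 4 samples (2 control, 2 sgSNHG1) had been trimmed with cutadapt and aligned to GRCh38 with BWA by the authors, who removed duplicate, multiply mapped, improperly paired, mitochondrial and blacklisted reads, shifted read ends for the transposase, combined the replicates of a group and called peaks with MACS2 in paired-end mode. Versions and the calling threshold are not given in the sources used here. The deposited peak lists give each peak's fold enrichment, a ratio to the local background, and −log10 p-value and −log10 q-value, as well as the summit position. The authors' filter on duplicates limits the height of deep peaks, and the smallest −log10 q in the lists was 2.00 and 2.01. The pooling hides the spread between replicates.

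Pileup and local background at each summit were recovered by finding the whole-number pileup whose Poisson tail gave the listed −log10 p-value at the listed fold enrichment, which matched within 0.001 for 47609 of 47610 control and 42682 of 42682 sgSNHG1 peaks. The solution was tested on simulated peaks. The counting error of a log2 ratio is the Poisson standard error of the 2 pileups, and shares have 95% Wilson intervals. Peaks were paired where they overlapped by at least 1 bp and were each other's largest overlap. The value of a promoter is its highest peak. Genes and start sites came from GENCODE version 44. Python 3.11.15, numpy 2.4.6, pandas 2.3.3, scipy 1.17.1 and matplotlib 3.10.9 were used.

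The members and the other gene lists were chosen with earlier results of these data known. All 10 members were named with both values. From each other list the 2 genes with the highest control peaks, any gene past a log2 ratio of 1 and any gene with a promoter peak in 1 list were named. Within a locus the promoter peak, the highest distal control peak and unpaired peaks of −log10 q of at least 10 were named. 1 gene of the other lists is not reported here. Other sites and genes in the text were chosen after their values were seen. Sequences are from RefSeq (GRCh38.p14), and the promoters of TH, GCH1, SLC18A1, SLC6A2, CHGB and SCG2 are not printed.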

Additional observations from a re-analysis of the deposited data

How the results depend on the processing

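The number of members with a promoter peak in control was 9 under every alternative tried. The number in sgSNHG1 was 5 with peaks of −log10 q of at least 10. The shares of all genes at that limit are not given and the 2 lists differ in depth, so the 9 and 5 are no result about these genes. At that limit the loci held 41 control and 31 sgSNHG1 peaks, and 96.8% of the latter were shared. With 10 kb in place of 50 kb around the genes they held 39 and 32. Where an overlap of 50% was required, 51.5% of control and 59.3% of sgSNHG1 peaks were shared, and with summits within 150 bp 74.6% of sgSNHG1 peaks were. The median promoter ratio was between -0.365, with 1 start per gene, and 0.01, at −log10 q of at least 10. Both settings changed which genes had a ratio. The first left out SLC18A1, and the second left out DBH, SLC18A2 and CHGA, whose sgSNHG1 peaks were below the limit. The 0.01 is therefore no check of the sign in the 8 genes. The median pair ratio was 0.01 under the 50% overlap, so its sign rests on that choice. The ratio of the SLC18A1 promoter moved to 0.96 (error 0.459) with a 1 kb window. That is past 2 counting errors, but it compares peaks at different sites. Leaving out promoters of other genes, and the locus sums, were alternatives chosen after the data were seen. Of the alternative values for the counts, shares and medians, 9 moved and 35 stayed within the limits set. Among the promoter ratios and locus sums of the members at the main setting, only the SLC18A2 sum was past 2 counting errors. It was -0.39 at −log10 q of at least 5 and -0.56 within 10 kb. Both settings use part of the same pairs, so they are no independent check of its sign. No paired analysis was possible because each group has 1 pooled peak list, and no sample could be left out for the same reason. Depth limits single peaks: at a median counting error of 0.376 a log2 ratio under about 2 counting errors was not detectable.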
